A study of Homo sapiens with 8 samples.

Results

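The peak list of the polypyrimidine tract binding protein (PTB) crosslinked with UVC light in 293T cells gave 80531 merged sites. Of these, 5973 met a UVA peak but no iCLIP peak and no control peak. The submitters re-derived the iCLIP list from another study's samples. The 5973 sites were 7.42% of the UVC sites (exact 95% interval 7.24 to 7.60). Whether PTB binds at each peak was not tested. The sites were chosen by list membership: UVC peaks within 20 nt of each other on 1 strand were merged, and a merged site was kept if a UVA peak overlapped it by 1 nt or more in the same orientation and no iCLIP peak or peak of either control did. Here they are called iCLIP-absent sites. Presence in the 5 lists chose them, so the 7.42% describes the rule and is not a finding about PTB. Over all merged UVC sites, 11.3% (9060) lay on a UVA peak.

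The lists come from GoldCLIP, a gel-free variant of crosslinking and immunoprecipitation (CLIP) in which the protein is captured by its Halo tag. The cells were transgenic human 293T cells, an embryonic kidney line. Halo-PTB cells were crosslinked with UVC, crosslinked with UVA or left without UV, and Halo-YFP cells, whose tagged yellow fluorescent protein is no RNA-binding protein, were crosslinked with UVC. Each of these 4 groups has 2 replicates and 1 deposited peak list, without replicate names. The labels name no photoreactive nucleoside for the UVA arm, no promoter for the transgenes and no clone, and the series text does not name the cells of the iCLIP study. Sequencing depth is unknown and no value has a spread between replicates. Intervals cover counting error only and treat sites as independent, which neighbouring sites are not, so they may be too narrow.

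PTB binds pyrimidine-rich stretches of RNA and is best known as a repressor of alternative exons. It also acts at 3′ ends of messages and in translation. UVC crosslinks bases to nearby amino acids directly, while UVA is commonly paired with a photoreactive nucleoside. In iCLIP the crosslinked complexes are purified on a gel and many reads stop next to the crosslinked base, whereas GoldCLIP leaves the gel out and relies on the covalent Halo tag. No genome or gene annotation of the build used by the lists (hg19) was at hand, so sites are given by position and strand, with no gene name and no sequence.

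Among the 8728 UVC sites that met a UVA peak and no control peak, 68.4% (interval 67.4 to 69.4) were iCLIP-absent sites and 2755 were also on an iCLIP peak. The iCLIP-absent share fell as the UVA score rose. The score is the authors' own value for each peak and does not exceed 1000 in any list. Peaks listed with both a p-value and a score of 0 are an exception: their score was set here to 1000, the limit, and among the others a lower p-value went with a higher score. At UVA scores of 13 to 50, 1032 of 1192 sites (86.6%) had no iCLIP peak. At 101 to 200 the share was 73.5%, at 501 to 999 it was 53.2%, and at the score limit 235 of 658 sites had none (35.7%, interval 32.0 to 39.5). That top band includes 85 sites on a UVA peak whose score was set to the limit, 14 of them without an iCLIP peak, and without these 85 the share was 38.6% (221 of 573, interval 34.6 to 42.7). The highest-scoring UVA positions were thus more often in the iCLIP map than not, and the lowest-scoring were mostly missing from it. With the UVC score the decline was shallower: 73.5% at scores of 13 to 16 and 57.5% (interval 53.7 to 61.3) above 100. Wider sites were also less often absent, with 72.4% of sites of up to 39 nt and 53.0% of sites over 100 nt lacking an iCLIP peak. A wider site meets an iCLIP peak more easily, so this decline is partly tied to the rule.

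**Figure D1:**
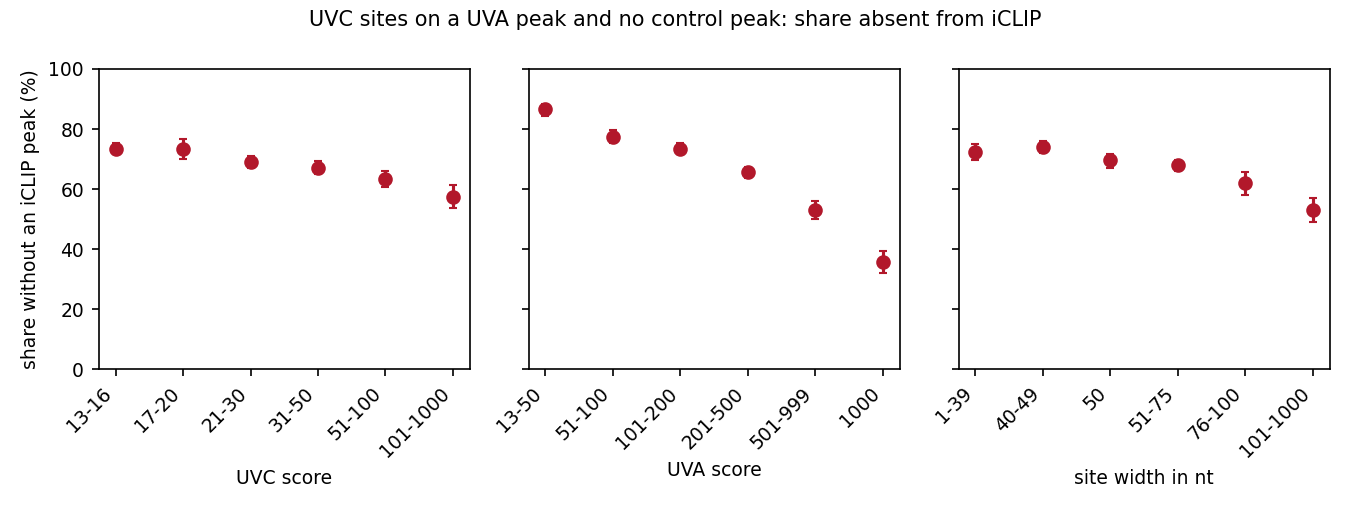
Share (%) of UVC sites on a UVA peak and on no control peak that had no iCLIP peak, by highest UVC score, highest UVA score and site width in nt. Points are shares and bars exact 95% intervals; the share runs from 86.6% at UVA scores of 13 to 50 down to 35.7% at the score limit.

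iCLIP-absent sites were spread over the whole range of scores in both arms. Their UVC scores ranged from 13 to 1000 with a median of 25 and quartiles of 16 and 43. Their UVA scores, taken from the highest-scoring UVA peak on each site, ranged from 13 to 1000 with a median of 155 and quartiles of 70 and 318. A UVC score of at least 100 was reached by 385 sites (6.45%, against 1.81% of all merged UVC sites), and a UVA score of at least 100 by 3886 (65.1%). Both scores were at least 100 at 327 sites (5.47%), both were under 100 at 2029 (34.0%), and 58 sites (0.971%) reached 100 in UVC but not in UVA. A score orders the peaks of its own list, and the list medians were 19 in UVC and 92 in UVA, so a score of 100 stands higher in the UVC list than in the UVA list. Over the 5973 sites the UVC and UVA scores had a Spearman rho of 0.242, or 0.210 without the 235 sites at the UVA limit. UVC score and site width had a rho of 0.620 over the same sites. The points of these correlations share libraries, and RNA abundance was not measured.

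**Figure D2:**
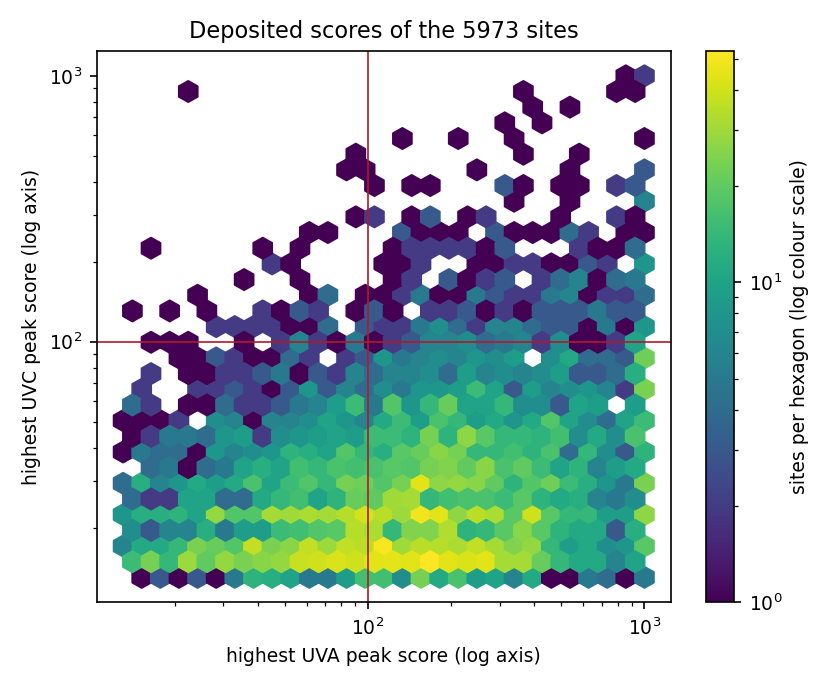
Highest UVC score (vertical, log axis) against highest UVA score (horizontal, log axis) of the 5973 iCLIP-absent sites, with hexagons coloured by number of sites on a log scale and lines at a score of 100. Most sites lie below the horizontal line, and 3559 (59.6%) are at or right of the vertical line and below the horizontal one.

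Set beside the 2755 sites found in all 3 PTB lists on no control peak, iCLIP-absent sites were lower in both scores and narrower. The median UVA score was 155 at iCLIP-absent sites and 297 at sites in all 3 lists, and UVA scores of at least 100 made up 65.1% and 83.0% (difference -18.0 points, Newcombe 95% interval -19.8 to -16.1). The UVA score is the highest over the UVA peaks on a site. More than 1 UVA peak lay on 14.8% of iCLIP-absent sites and 28.1% of sites in all 3 lists (difference -13.3 points, interval -15.2 to -11.4). The part of this in the score difference was not tested. The median UVC score was 25 at iCLIP-absent sites and 29 at sites in all 3 lists. UVC scores of at least 100 made up 6.45% and 10.2% (difference -3.79 points, interval -5.12 to -2.53). Against the 69028 UVC sites on no UVA, iCLIP or control peak, called UVC-alone sites below, the order was the other way: 6.45% of iCLIP-absent sites and 0.671% of UVC-alone sites scored at least 100 in UVC (difference 5.77 points, interval 5.18 to 6.43).

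iCLIP-absent sites had a median width of 50 nt, with quartiles of 47 and 59 nt and a range of 1 to 238 nt. Of these sites 2755 (46.1%) were wider than 50 nt, against 17.0% of all merged UVC sites. The share was 54.6% among sites in all 3 lists (difference -8.47 points, interval -10.7 to -6.21) and 12.3% among UVC-alone sites (difference 33.9 points, interval 32.6 to 35.2). A wider site meets a peak of another list more easily, so width is partly tied to the rule. Most iCLIP-absent sites came from a single UVC peak, with 28.8% (1720) merged from more than 1, against 45.6% of UVC-alone sites (difference -16.8 points, interval -18.0 to -15.6). Seen from the UVA list, 6954 of its 83725 peaks (8.31%) lay on iCLIP-absent sites, and 884 of these sites (14.8%) held more than 1 UVA peak. Merged UVA sites on iCLIP-absent sites had a median width of 55 nt and a median score of 156, while UVA sites on no peak of any other list had 36 nt and 60. UVA scores of at least 100 made up 65.0% of the 5917 UVA sites on iCLIP-absent sites and 34.3% of the 50921 UVA sites found in no other list (difference 30.6 points, interval 29.3 to 31.9). Both classes were set by list overlap, and a wider UVA site meets a UVC site more easily, so these differences are partly tied to the rule. UVA sites on iCLIP-absent sites could themselves reach an iCLIP or control peak, while those in no other list could not.

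The UVC and UVA footprints did not cover each other fully. iCLIP-absent sites shared a median of 31 nt with UVA peaks (quartiles 16 and 47). UVA peaks covered at least 50% of 3637 of these sites (60.9%) and all of 1197, while 422 sites (7.07%) shared 5 nt or fewer and 78 shared a single nt. Sites in all 3 lists were covered further, with 73.0% covered over at least 50% (difference -12.1 points, interval -14.2 to -10.0). Coverage counts all UVA peaks on a site, and more than 1 lay on 14.8% of iCLIP-absent sites and 28.1% of sites in all 3 lists. The part of this in the coverage difference was not tested. Offsets along the RNA use only the highest-scoring UVA peak on each site. This UVA peak began 3′ of the start of the UVC site at 55.6% of iCLIP-absent sites (interval 54.3 to 56.9), with a median offset of 4 nt. At the 3′ end the peaks were balanced, with the UVA peak ending further 3′ at 50.5% (interval 49.2 to 51.8). At sites in all 3 lists it ended further 3′ at 58.3% (difference -7.82 points, interval -10.0 to -5.57), while the share starting further 3′ was 56.2% (difference -0.625 points, interval -2.86 to 1.62).

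Absence from iCLIP by overlap did not mean distance from iCLIP. The median gap from an iCLIP-absent site to the nearest iCLIP peak on its strand was 2294 nt (quartiles 274 and 10624), against 7980 nt for UVC-alone sites. An iCLIP peak lay within 50 nt of 634 iCLIP-absent sites (10.6%) and within 500 nt of 1847 (30.9%, interval 29.8 to 32.1). Over all UVC sites on no iCLIP and no control peak, 12.5% had an iCLIP peak within 500 nt. The share for UVC-alone sites was 10.9%, with an interval of the difference of 18.8 to 21.2 points. Both classes were chosen by overlap with these lists, so the difference is partly tied to the rule. By construction the difference shrank when sites with an iCLIP or control peak near by were removed: it was 13.7 points without sites within 50 nt of one and 6.18 points (interval 5.28 to 7.15) without sites within 200 nt. The difference stood in each band of the UVC score, at 21.4 points for scores of 13 to 16 (32.8% and 11.4%) and at 12.4 points above 100 (27.5% and 15.1%, interval of the difference 6.82 to 18.0). At the far end, 624 iCLIP-absent sites (10.4%) and 18.0% of UVC-alone sites had no iCLIP peak within 50000 nt.

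Of the UVC-alone sites, 10846 had a UVA peak within 500 nt without overlapping it, and these were taken as a nearer comparison. Within 50 nt, 10.6% of iCLIP-absent sites and 6.42% of these UVC-alone sites had an iCLIP peak (difference 4.20 points, interval 3.30 to 5.12). Within 500 nt the order turned, at 30.9% and 35.4%. Within 1000 nt the shares were 38.9% and 43.3% (difference -4.42 points, interval -5.96 to -2.87), and within 10000 nt they were 74.2% and 79.4%. Among the distances compared, iCLIP-absent sites had the higher share at 50, 100 and 200 nt and the lower one from 500 nt on. Both classes were chosen by overlap with or distance to UVA and iCLIP peaks, so this order is partly tied to the rule. The rule also left out 2755 sites on a UVA peak and no control peak because they lay on an iCLIP peak. In 323 cases (5.41%, interval 4.85 to 6.01) the UVA peak on an iCLIP-absent site itself reached an iCLIP peak that the UVC site did not touch.

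**Figure D3:**
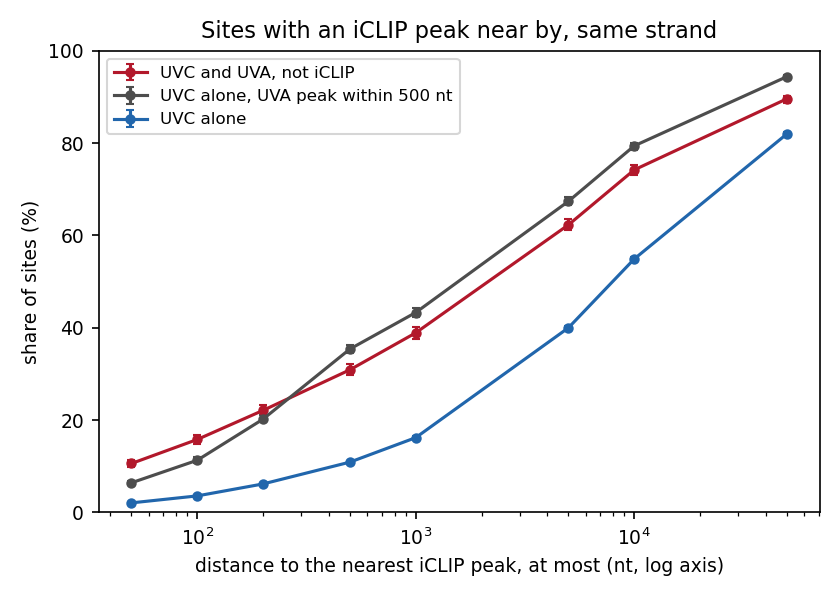
Share of sites (%) with an iCLIP peak on the same strand within the distance on the horizontal log axis (nt), for the 5973 iCLIP-absent sites, the 10846 UVC-alone sites with a UVA peak within 500 nt, and all 69028 UVC-alone sites; bars are exact 95% intervals. iCLIP-absent sites are highest at 50 nt (10.6%) and lie between the others from 500 nt on.

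The neighbouring iCLIP peaks were not placed evenly on both sides. Of the 1847 iCLIP-absent sites with an iCLIP peak within 500 nt, the nearest one lay 5′ of the site, upstream along the RNA, in 1199 and 3′ in 648, which is 64.9% 5′ (interval 62.7 to 67.1). Over all UVC sites on no iCLIP and no control peak the share was 56.7%. The 5′ share was 69.4% (interval 65.7 to 73.0) at 1 to 50 nt, 63.2% at 101 to 200 nt, 59.1% (interval 54.5 to 63.5) at 501 to 1000 nt and 61.1% (interval 57.4 to 64.7) at 5001 to 10000 nt. It was thus above 50% at far distances too. An iCLIP peak lay within 50 nt on the 5′ side of 452 iCLIP-absent sites (7.57%) and on the 3′ side of 210 (3.52%). Within 500 nt the 5′ share was above 50% on both strands (66.9% on the plus and 62.8% on the minus strand), for sites of a single UVC peak (66.2%) and of several (61.8%), and for UVA scores of at least 100 (66.4%) and below (61.6%). The 1847 sites had 1639 different iCLIP peaks as nearest neighbour, and with 1 site counted per iCLIP peak the 5′ share was 64.4% (interval 62.1 to 66.8). These neighbours had a median iCLIP score of 41, against 47 over the whole iCLIP list.

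UVC-alone sites had the nearest iCLIP peak within 500 nt on the 5′ side in 54.7%, which was 10.2 points below iCLIP-absent sites (interval of the difference 7.74 to 12.6). UVC-alone sites with a UVA peak within 500 nt were at 54.1% (difference 10.8 points, interval 8.08 to 13.4). With distance they ran the other way, at 49.5% (interval 45.7 to 53.3) at 1 to 50 nt and 62.9% (interval 60.2 to 65.5) at 5001 to 10000 nt. In that last band iCLIP-absent sites were at 61.1% (interval 57.4 to 64.7), and the difference was not tested. UVA sites found in no other list were closer to iCLIP-absent sites, at 60.6% (difference 4.29 points, interval 1.91 to 6.61). At 1 to 50 nt these UVA sites were at 65.3% (interval 63.5 to 67.1) and iCLIP-absent sites at 69.4% (interval 65.7 to 73.0). The difference in this band was not tested. A 5′ share above 50% was therefore also measured in the UVA list outside iCLIP-absent sites.

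**Figure D4:**
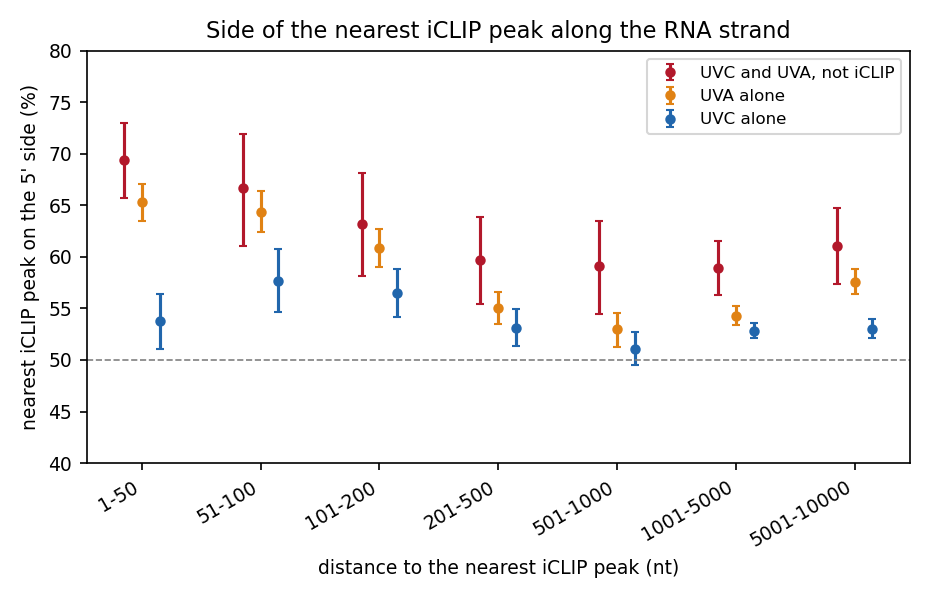
Share (%) of sites whose nearest iCLIP peak lies on the 5′ side, by distance to that peak in nt, for iCLIP-absent sites, UVA sites found in no other list and UVC-alone sites; bars are exact 95% intervals, the dashed line marks 50% and the axis starts at 40%. iCLIP-absent sites are at 69.4% at 1 to 50 nt, 58.9% at 1001 to 5000 nt and 61.1% at 5001 to 10000 nt.

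The control lists were far shorter than the iCLIP list, with 3809 peaks without UV and 2136 for YFP against 58213 for iCLIP. Counts of control and iCLIP neighbours are therefore not set against each other, only the order of the classes within each. A peak of the list without UV or of the YFP list lay within 50 nt of 51 iCLIP-absent sites (0.854%) and within 500 nt of 270 (4.52%, interval 4.01 to 5.08). Within 500 nt the share was 4.68% at sites in all 3 PTB lists (difference -0.162 points, interval -1.15 to 0.754). It was 3.15% at UVC-alone sites with a UVA peak within 500 nt (difference 1.37 points, interval 0.761 to 2.01) and 1.17% at all UVC-alone sites (difference 3.35 points, interval 2.85 to 3.91). Control peaks were thus near iCLIP-absent sites more often than near either UVC-alone class. For iCLIP peaks within 500 nt this held against all UVC-alone sites (30.9% and 10.9%). It did not hold against UVC-alone sites with a UVA peak within 500 nt (35.4%). As a separate quantity, 0.784% of all merged UVC sites lay on a control peak and were left out by the rule. A further 212 UVC sites would have joined the iCLIP-absent sites if control peaks had been allowed. On the opposite strand, which the rule did not use, 7 iCLIP-absent sites (0.117%, interval 0.0471 to 0.241) overlapped a UVA peak, against 25 UVC-alone sites (0.0362%, interval 0.0234 to 0.0535). A UVC peak lay opposite 2 iCLIP-absent sites (0.0335%) and 14 UVC-alone sites (0.0203%). No iCLIP-absent site overlapped an iCLIP, no-UV or YFP peak there, against 6 (0.00869%), 2 (0.00290%) and 0 UVC-alone sites. For iCLIP-absent sites, 0 of 5973 allows a share of up to 0.0502% for each list, taken as 3 counts, or 0.0617% as the exact upper bound.

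iCLIP-absent sites were spread over all chromosomes and their shares differed from those of UVC-alone sites on several. Chromosome 19 held 8.32% of iCLIP-absent sites (497), against 3.57% of UVC-alone sites (difference 4.75 points, interval 4.06 to 5.49), and chromosome 17 held 7.77% against 4.99% (difference 2.77 points, interval 2.10 to 3.50). Chromosome 2 held 5.31% against 7.69% (difference -2.38 points, interval -2.96 to -1.75), and chromosome 4 held 2.98% against 4.88%. In this comparison the interval of the difference lay above 0 on 6 of 23 chromosomes, chromosome Y left out, below 0 on 9 and held 0 on 8. Against sites in all 3 lists it held 0 on 17 of 23, but these intervals are wider, resting on 2755 sites in place of 69028, so the counts of chromosomes do not rank the comparisons. There the intervals left 0 out on 6 chromosomes, with iCLIP-absent sites higher on chromosomes 3, 4 and 20 and lower on chromosomes 1, 10 and 19 (8.32% against 9.80%, interval of the difference -2.83 to -0.198). These intervals are not adjusted for the number of chromosomes. On chromosome Y lay 2 iCLIP-absent sites, 0 sites in all 3 lists and 0 UVC-alone sites.

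**Figure D5:**
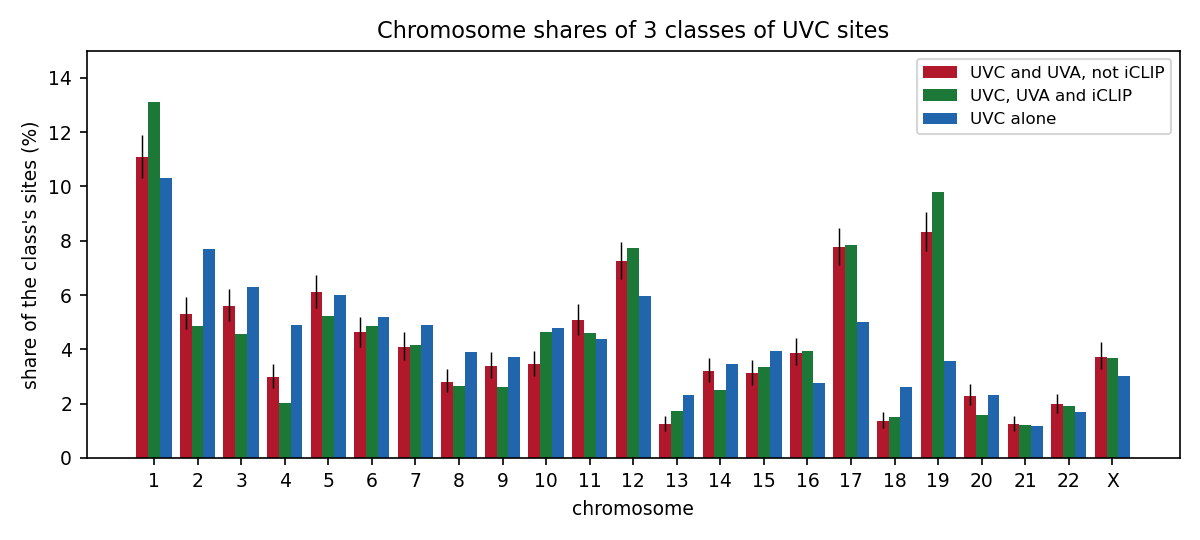
Share (%) of each class of sites by chromosome, for iCLIP-absent sites (with exact 95% intervals), sites in all 3 PTB lists and UVC-alone sites; chromosome Y is left out. On chromosome 19 the shares are 8.32%, 9.80% and 3.57%.

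Among themselves the sites were mostly scattered. Another iCLIP-absent site lay within 500 nt on the same strand of 1372 sites (23.0%, interval 21.9 to 24.1), and the corresponding share among the fewer sites in all 3 lists was 19.5%. Over all merged UVC sites, which are denser, 26.8% had another UVC site that close. Joined at gaps of up to 500 nt, 4601 sites stood alone, 482 formed pairs, 86 formed groups of 3 and 7 groups held 5 or more. The largest groups held 6 sites each: chr12:1309735-1310930, chr22:39917363-39918675 and chrX:70519821-70521004, all on the plus strand.

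In windows of 100 kb on 1 strand, the sites fell in 3625 windows, of which 2345 held a single site. The 10 fullest windows held 100 of them (1.67%). The fullest was the minus-strand window chr19:39300001-39400000, with 12 iCLIP-absent sites and 3 sites in all 3 lists among 30 UVC, 37 UVA and 16 iCLIP sites. The minus-strand window chr20:34200001-34300000 held 10 iCLIP-absent sites and 0 sites in all 3 lists, although it had 33 UVA and 15 iCLIP sites. On the minus strand of chrX:73000001-73100000, 10 iCLIP-absent sites lay among 33 no-UV and 31 YFP sites, more control sites than in any other of the 8 fullest windows, beside 6 iCLIP sites. A share of 11.7% (701 sites) lay in windows without any iCLIP site, against 20.4% of UVC-alone sites (difference -8.66 points, interval -9.50 to -7.76). There were 98 such windows with at least 2 iCLIP-absent sites. The most, 5, lay on the minus strand of chr11:27900001-28000000, where all 5 UVC sites were iCLIP-absent sites among 6 UVA sites, and on the plus strands of chr11:75200001-75300000 and chr5:71500001-71600000. None of these 3 windows held a control site. The windows were ranked after their values were seen.

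The sites that stood highest in both arms, ranked by the lower of the UVC and UVA scores as listed, without rescaling between lists, were 56 to 169 nt wide and differed in their surroundings. The first, chr22:36234309-36234364 on the minus strand (56 nt), scored 1000 in UVC and 1000 in UVA, with the nearest iCLIP peak 71366 nt away and the nearest control peak 73022 nt away. The site chr11:65622293-65622432 on the minus strand (140 nt) scored 937 in UVC and 1000 in UVA, but lay 62 nt from an iCLIP peak on its 5′ side and 45 nt from a peak of the list without UV. The first was thus far from iCLIP and control peaks, and the next was close to both. The site chr6:74082974-74083030 (minus, 57 nt) scored 837 in UVC and was set to the limit of 1000 in UVA, and was covered whole by a UVA peak, 69924 nt from iCLIP. The site chr17:37360869-37360972 (plus, 104 nt) scored 1000 in UVC and 828 in UVA, 4095 nt from iCLIP. The site chr15:72491389-72491557 (minus, 169 nt) scored 895 in UVC and 799 in UVA and held 5 UVA peaks, 3962 nt from an iCLIP peak and 3270 nt from a no-UV peak.

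The widest iCLIP-absent sites reached across several peaks. The site chr10:120927522-120927759 (minus, 238 nt) shared 232 nt with 3 UVA peaks and scored 75 in UVC and 446 in UVA. The site chr15:45007642-45007862 (plus, 221 nt) lay entirely under 4 UVA peaks, scored 96 in UVC and 1000 in UVA, and had no iCLIP peak within 154262 nt, although a YFP peak lay 2201 nt away. The site chr2:198367963-198368164 (plus, 202 nt) scored 377 in UVC and 346 in UVA, and chr5:10264968-10265167 (plus, 200 nt) scored 241 in UVC and 290 in UVA. The site chr11:65193805-65194001 (plus, 197 nt) lay in a gap between iCLIP peaks 68 nt on its 5′ side and 23 nt on its 3′ side, and scored 214 in UVC and 333 in UVA.

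Among the 327 sites scoring at least 100 in both arms, the 5 farthest from iCLIP all lay at least 764527 nt from it. The site chr9:80335854-80335911 (minus) scored 136 in UVC and 664 in UVA and lay 899702 nt from iCLIP. The site chr8:15605367-15605411 (plus) scored 110 in UVC and 1000 in UVA, 871829 nt from iCLIP and 41943 nt from a no-UV peak. The site chr15:36324682-36324736 (minus) scored 421 in UVC and 104 in UVA, chr1:99474056-99474110 (plus) scored 117 in UVC and 323 in UVA, and chr14:34245715-34245768 (plus) scored 105 in UVC and 165 in UVA. All 5 were 45 to 58 nt wide.

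At the edge of the rule, 16 iCLIP-absent sites touched an iCLIP peak without sharing a base and 180 lay within 10 nt of one, while 14 sites in all 3 lists shared only 1 nt with iCLIP and 271 shared 10 nt or fewer. Just inside, chr2:114470253-114470322 (minus) scored 32 in UVC and 100 in UVA, chr1:54636885-54636953 (minus) 42 and 55, and chr5:134144858-134144921 (plus) 51 and 830. Just outside, chr10:49637721-49637830 (plus) scored 45 in UVC and 476 in UVA, chr17:30807884-30807993 (plus) 54 and 142, and chr11:27519690-27519746 (minus) 31 and 305.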

How the data were processed

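The submitters' processing notes list Bowtie 1.1.2 as a tool and 2 builds, hg19 (human) and dm3 (fly). The lists hold human chromosome names and were read as hg19. Peak caller, filters and replicate pooling were not given in the sources used here. Each of the 5 lists that the authors deposited has 10 columns, with a start, an end, a strand, a score and a p-value per peak. Per the series text, the submitters derived the iCLIP list anew from another study's samples, using the methods of their own libraries. The deposited p-value was used for 1 purpose: peaks listed with a p-value and score of 0 (148 in UVC, 538 in UVA, 39 in YFP and 104 in iCLIP) were set to the score limit of 1000, which touched 14 iCLIP-absent sites in UVA. Start positions were turned to count from 1.

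Sites were built by merging at 20 nt and counted as overlapping from 1 shared nt, strand by strand. Touching peaks have a gap of 1 nt. Shares carry exact Clopper-Pearson 95% intervals and differences Newcombe 95% intervals. Each group has only 1 list, so no p-value between conditions is given. Sites were named by rule: the 5 widest, the 5 with the highest lower score, the 5 with both scores at least 100 that lie farthest from iCLIP, and the 3 nearest to the 1 nt limit on either side. The choice of sites, rules and comparisons was made with earlier results of these data known. The list of sites matched bedtools 2.31.1 at 5973 of 5973 positions, and 1805 of 1805 planted sites among 3000 simulated sites were recovered. The simulated sites stood far apart, so the simulation did not try merging, overlaps of 1 nt or touching peaks. The sequence, motifs and genes of the sites were not analysed here. Tables were handled with pandas 2.3.3 and numpy 2.4.6 under Python 3.11.15, intervals came from scipy 1.17.1, and plots from matplotlib 3.10.9. The 8 alternatives cover the merging distance, the overlap, the gap to other lists, the score, the strand and the chromosomes.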

Additional observations from a re-analysis of the deposited data

How the results depend on the processing

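Of the main values, 7 were recomputed under 8 alternatives; the share absent from iCLIP, the 5′ share and the difference from UVC-alone sites were added to them after seeing the data. Requiring 50% of a site to be covered by UVA peaks left 3637 iCLIP-absent sites, 64.4% of UVC sites on a UVA peak and no control peak absent from iCLIP, and 19.9% with another such site within 500 nt. Keeping only UVC and UVA peaks that reached their list's median score gave 3003 sites with a median width of 54 nt, 62.2% absent, 32.2% with an iCLIP peak within 500 nt and 19.9% with another site that close. In another alternative, sites within 50 nt of an iCLIP peak were counted as iCLIP sites, and those within 50 nt of a control peak as control sites. Counting sites near iCLIP as present lowers the absent share by construction. That share was 61.2% of 8642 sites, with 22.7% of the remaining iCLIP-absent sites near iCLIP and 21.7% near another site. At 200 nt the values were 53.3% of 8499 sites, 11.2% and 20.4%. Merging at 50 nt gave 29.5% near iCLIP and 18.5% near another site, and merging at 0 nt gave 25.5% near another site. The 5′ share of nearest iCLIP peaks stayed above 50% in all 8 and in 2 alternatives chosen after seeing the data (59.8% to 67.0%). The difference from UVC-alone sites in iCLIP peaks within 500 nt stayed above 0 in all 8 (6.18 to 20.9 points). Leaving out sites on UVA peaks set to the score limit, also chosen after seeing the data, changed the share absent at that limit to 38.6%. Ignoring strand or keeping chromosomes 1 to 22 and X gave between 5971 and 5996 sites and moved no share by more than its interval. No paired analysis was possible because each group has only 1 list without replicate names, which also leaves no replicate to omit. Alternatives for motif, base and gene shares were not run, since no hg19 genome or annotation was at hand. Depth is unknown, and its part in a site's absence from a list was not tested.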
